A study of Homo sapiens with 10 samples.

Results

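Immediate early genes are switched on within minutes of a growth factor, oncogene or stress signal, without new protein being made first. The 10 studied here, chosen by gene symbol, were the zinc finger transcription factors EGR1, EGR2 and EGR3, the AP-1 subunits FOS, FOSB, FOSL1, JUN and JUNB, the stress factor ATF3, and IER3, a small protein that modulates cell survival. Each symbol matched 1 Ensembl gene of the 57736 in the count table, and all 10 were among the 16760 genes with enough counts to be tested.

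RNA was sequenced from IMR90 human fetal lung fibroblasts, in 5 groups of 2 samples. The first 3 groups were senescent and had the METTL3 knockout. A mutant METTL3 was added in the mutant knock-in group, a wild type METTL3 in the wild type knock-in group, and no METTL3 in the knockout group. The fourth was senescent with the control knockout, called senescent control here, and the last was control cells. Senescence was brought on by a retrovirus expressing RAS, and control cells carried the empty retrovirus. The knockout of the titles was an siRNA treatment, begun on day 4 after the retrovirus, and the knock-in was a lentivirus given on the following day, with harvest 48 hours later. The protocol text names METTL14 for these steps, whereas the titles and the column names give METTL3. Column names of the knockout samples carry the tag vec, which may stand for an empty vector but is not explained. Those of senescent control and control cells carry no such tag. Both carry the tag siCTR, which may stand for a control siRNA but is not explained either. The sources used here do not give the METTL3 mutation, whether senescent control cells received an empty lentivirus, or whether replicates were separate cultures. The p-values below therefore reflect the spread among samples that may be technical repeats. A change between a knock-in and the other groups cannot be told apart from an effect of the lentivirus itself where the other group had none.

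METTL3, the catalytic subunit of the m6A RNA methyltransferase, checked the labels. It averaged 130941 CPM (counts scaled to a library of 1000000) ± 23806 in the mutant knock-in, 58255 ± 184 in the wild type knock-in, 26.0 ± 4.02 in the knockout, 52.3 ± 7.09 in senescent control and 77.0 ± 6.20 in control cells (SD, n = 2 each). HRAS averaged 26.7, 46.1, 40.2, 61.2 and 14.7 CPM in the same order. Libraries held 16293975 to 23570266 counts, of which METTL3 took 5.86% to 14.2% in the 4 knock-in samples and 0.00246% to 0.00791% in the other 6. The summed level of 7 fibroblast markers was 4931 to 5598 CPM in the mutant knock-in, 7564 to 8057 in the wild type knock-in, 9733 to 10285 in the knockout, 9334 to 10047 in senescent control and 13600.3 to 16935 in control cells, with no marker at 0. CD3E, a defining marker of T cells, had no count in any group. The sum of 7 leukocyte markers was 157.1 to 177 CPM in the knock-ins and 66.8 to 79.5 in the other groups, nearly all of it CD68, a lysosomal protein (165.9 CPM in the mutant and 156.1 in the wild type knock-in, against 76.4 in the knockout). PTPRC, the leukocyte antigen CD45, averaged 4.41 CPM in the mutant knock-in, 1.20 in the wild type knock-in and 0.214 in the knockout. The sums of 5 epithelial and 4 endothelial markers stayed within 2.44 to 4.99 and 18.5 to 29.3 CPM, with KRT5 at 0 in every group and CDH5 at 0 in all but the mutant knock-in. The 2 control samples stood apart from each other. All 10 genes were higher in control sample 1 than in control sample 2, by ratios of 1.10 (ATF3) to 1.95 (EGR3), whereas 1 to 8 of the 10 were higher in sample 1 of the other groups. Over all genes the chi-square statistic comparing the 2 samples of a group, divided by the number of genes, was 38.0 for control and ran from 5.46 to 7.95 in the others. What part these marker shifts had in the results below was not tested, and in bulk RNA fewer cells of a type and less RNA per cell cannot be told apart.

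The family works as a relay. RAS, ERK and the stress kinases JNK and p38 act on factors already bound at these genes, chiefly serum response factor with its ETS partners and CREB or ATF proteins. The RNAs that follow are short-lived. FOS proteins bind DNA mainly with a JUN partner rather than with each other. EGR proteins bind GC-rich sites and are held back by the co-repressors NAB1 and NAB2. ATF3 is a bZIP factor made under amino acid, endoplasmic reticulum and DNA damage stress. In RAS-senescent fibroblasts AP-1 is known as an organiser of the enhancers of the secretory programme.

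The 10 genes did not move as 1 block. FOS and FOSB rose in senescence and were called neither higher nor lower in the knockout. IER3, JUNB, EGR1 and EGR3 fell in the knockout. EGR1, EGR2 and ATF3 stood far above every other group in both knock-ins. The levels by sample are plotted next, as CPM scaled by TMM (trimmed mean of M-values, edgeR's correction for library composition). Genes are said to rise, fall, or be higher or lower where the edgeR quasi-likelihood test gave an adjusted p under 0.05 over all 16760 genes. Changes are log2 fold changes with their standard error (SE).

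**Figure D1:**
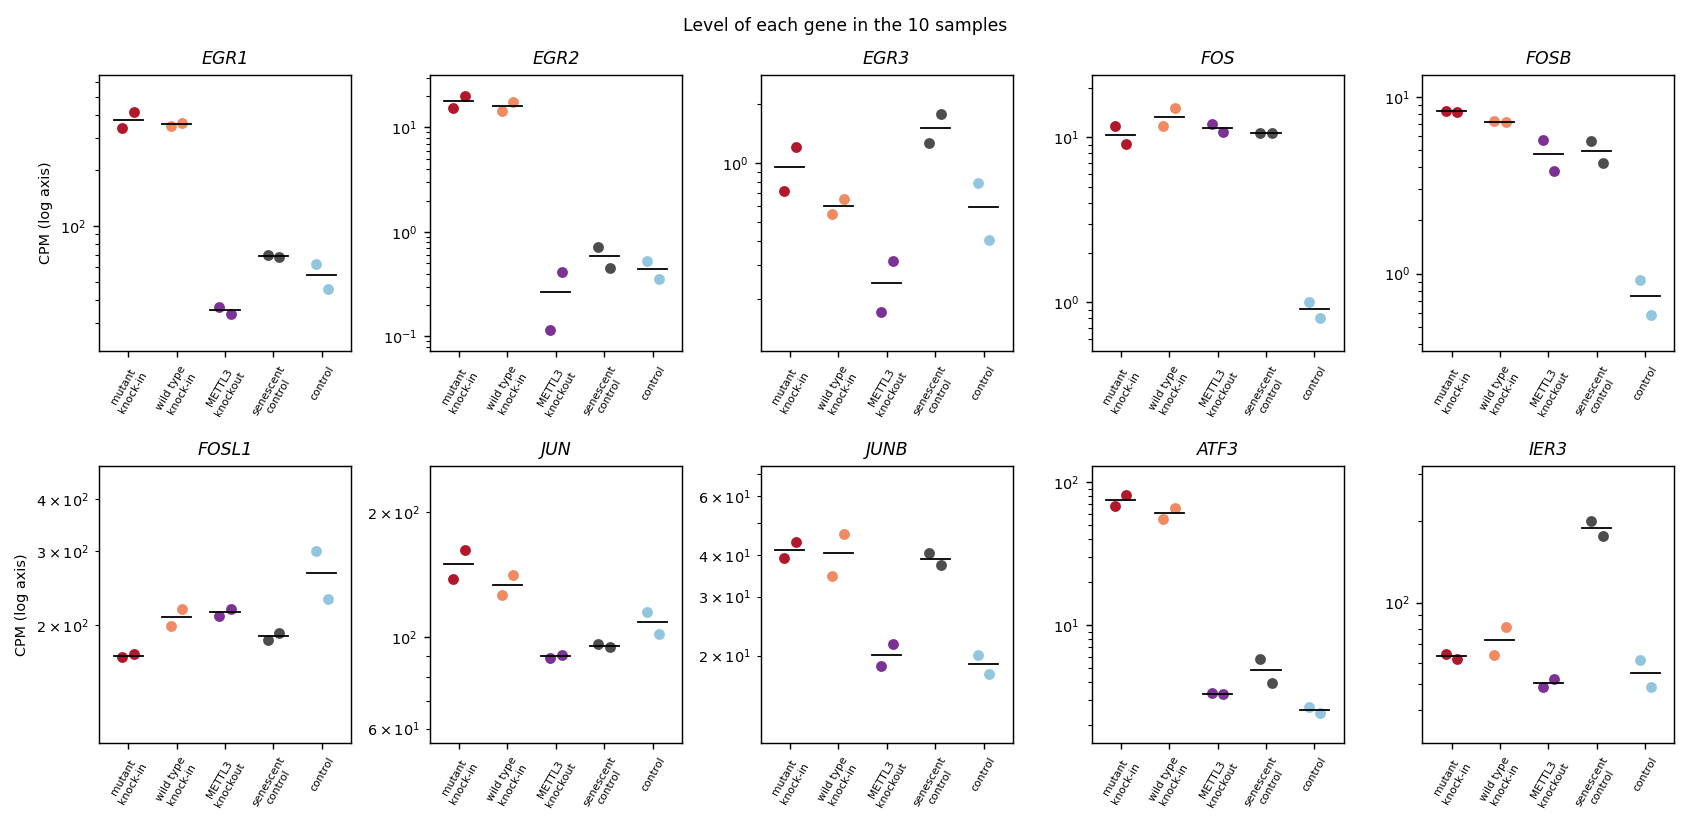
Level of each of the 10 genes in CPM (log axis) in the 10 samples. Points are samples (2 per group) and the bar is their mean. EGR1, EGR2 and ATF3 form a high plateau in both knock-ins, FOS and FOSB are low only in control cells, and IER3 is high only in senescent control.

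EGR1 is the most widely induced member of the EGR family. It measured 340.3 and 411.4 CPM in the mutant knock-in, 348.4 and 361.7 in the wild type knock-in, 36.3 and 33.6 in the knockout, 70.0 and 67.8 in senescent control, and 62.4 and 45.8 in control cells. The knock-in samples stood above all others and the knockout samples below all others, with no overlap between these 3 levels. In the knockout EGR1 fell by 0.98 (SE 0.14) relative to senescent control (adjusted p = 0.000573). Against the knockout it rose by 3.34 (SE 0.15) in the wild type knock-in (adjusted p = 4.78e-08) and by 3.43 (SE 0.15) in the mutant knock-in (adjusted p = 2.69e-08). The knock-ins went past the senescent level, by 2.37 (SE 0.14) in the wild type and 2.45 (SE 0.14) in the mutant. Senescent control against control gave 0.35 (SE 0.14) and an adjusted p of 0.0568. Without control sample 1 this was 0.61 with an adjusted p of 8.00e-05. It also passed with DESeq2 (0.0319), and its adjusted p ran from 8.00e-05 to 0.153 over the alternatives. The knockout was lower than control cells too (log2 change -0.63, SE 0.14, adjusted p = 0.00345).

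EGR2, which drives myelination genes in Schwann cells and anergy genes in lymphocytes, was close to undetected outside the knock-ins. It had 15.5 and 20.1 CPM in the mutant knock-in and 14.4 and 17.4 in the wild type knock-in. The 6 other samples held 0.115 to 0.713 CPM, or 2 to 13 counts, so EGR2 passed the filter on low counts, as applied to all 10 samples, only through the knock-ins, and it is left out of the counts over the genes in knock-in comparisons below. The summed counts were 577 in the mutant knock-in and 610 in the wild type knock-in against 10 in the knockout. The count ratio to the knockout was 64.7 for the mutant (exact 95% interval 34.9 to 136) and 58.8 for the wild type (31.8 to 123). Such intervals cover counting error only. Its log2 change in the knockout against senescent control was -1.05 (SE 0.57, adjusted p = 0.259), on 10 against 23 counts.

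EGR3, a partner of EGR2 in lymphocytes, stayed low everywhere, with at most 39 counts in a sample. It had 0.716 and 1.20 CPM in the mutant knock-in, 0.549 and 0.653 in the wild type knock-in, 0.173 and 0.313 in the knockout, 1.26 and 1.78 in senescent control, and 0.788 and 0.403 in control cells. Unlike EGR1 and EGR2, it had its highest samples in senescent control and not in a knock-in. In senescent control it rose by 1.35 (SE 0.41) against control (adjusted p = 0.0189), a call lost without control sample 2 (0.0905), without senescent control sample 2 (0.143) and with DESeq2 (0.118). In the knockout it fell by 2.61 (SE 0.50) against senescent control (adjusted p = 0.00366, and 0.0514 without knockout sample 1). On 9 against 62 counts the ratio was 0.160 (exact 95% interval 0.0697 to 0.323). It rose by 1.93 (SE 0.55) in the mutant knock-in against the knockout (adjusted p = 0.0118, but 0.0871 without knockout sample 1, 0.117 without mutant sample 2 and 0.0537 with DESeq2). The wild type knock-in gave 1.28 (SE 0.58, adjusted p = 0.112). Against senescent control the wild type knock-in was lower by a log2 change of -1.33 (SE 0.43, adjusted p = 0.0261). That call was lost without either wild type sample (0.120 and 0.0750), without senescent control sample 2 (0.178) and with DESeq2 (0.154).

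The promoters of EGR1 and EGR2 are shown because these 2 EGR genes, unlike EGR3, stood far above all other groups in the knock-ins. The promoter of EGR3 was not among those read here, so no contrast with it can be drawn. Sequences are RefSeq windows of 300 bases on GRCh38.p14 that span an annotated start, given 5′ to 3′ on the gene's strand. Capitals mark a CArG box, the site of serum response factor, and the core TGACGT (or its reverse complement ACGTCA) of the cyclic AMP response element. EGR1 lies at chr5:138465229-138465528 on the plus strand. Of 3 starts listed for EGR2, the one shown, at chr10:62816317-62816616 on the minus strand, is the one with matches.
EGR1: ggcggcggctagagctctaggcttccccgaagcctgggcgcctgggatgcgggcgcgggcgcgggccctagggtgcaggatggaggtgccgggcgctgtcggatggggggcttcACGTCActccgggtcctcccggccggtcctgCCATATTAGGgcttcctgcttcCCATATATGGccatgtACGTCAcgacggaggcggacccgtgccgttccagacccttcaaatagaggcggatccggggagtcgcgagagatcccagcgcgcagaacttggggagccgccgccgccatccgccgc
EGR2: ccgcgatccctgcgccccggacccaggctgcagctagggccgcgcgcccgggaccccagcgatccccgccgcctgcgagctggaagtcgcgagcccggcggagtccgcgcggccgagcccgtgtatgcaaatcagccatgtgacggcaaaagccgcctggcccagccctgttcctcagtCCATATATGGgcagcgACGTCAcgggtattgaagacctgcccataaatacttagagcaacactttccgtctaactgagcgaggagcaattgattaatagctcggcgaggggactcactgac
Both windows held CCATATATGG, 83 bases upstream of the start in EGR1 and 71 in EGR2, with ACGTCA beginning 16 bases after the first base of that box in each. EGR1 had a second CArG box, CCATATTAGG, 105 bases upstream, and a second core 136 bases upstream. Searching both strands, 1.29% of 35116 promoter windows of 300 bases held a CArG box, 7.98% held TGACGT or its complement and 36 windows (0.103%) held both. The 16-base arrangement was found in 2 windows, those of EGR1 and EGR2. It was looked for after these sequences had been read, and a match describes letters, not binding.

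ATF3 followed EGR1 and EGR2 more closely than it followed its AP-1 relatives. It measured 67.8 and 81.5 CPM in the mutant knock-in, 55.1 and 65.9 in the wild type knock-in, 3.35 and 3.29 in the knockout, 5.81 and 3.97 in senescent control, and 2.67 and 2.42 in control cells. The knock-in samples did not overlap with any other group. Against the knockout ATF3 rose by 4.49 (SE 0.18) in the mutant (adjusted p = 1.25e-08) and by 4.19 (SE 0.18) in the wild type knock-in (adjusted p = 3.13e-08). Against senescent control the changes were 3.94 (SE 0.17) and 3.64 (SE 0.17). In senescent control it rose by 0.93 (SE 0.22) against control (adjusted p = 0.00473), a call that narrowly missed the threshold on leaving out control sample 2 (0.0507) or senescent control sample 1 (0.0533). The knockout gave -0.55 (SE 0.22, adjusted p = 0.118) against senescent control, which passed with no filter on low counts (0.0222) and with only these 2 groups fitted (0.0480), and the change ran from -0.26 to -0.81 over the alternatives. Over the 10 samples the nearest of the other 9 genes to EGR2 was ATF3, with a root mean square difference of 0.605 in centred log2 CPM, and the nearest to EGR1 was also ATF3 (0.766).
The upstream of the 2 ATF3 windows, at chr1:212565157-212565456 on the plus strand, is printed with a capital TGACATCA, a variant of the ATF and AP-1 site, and held no CArG box.
ATF3: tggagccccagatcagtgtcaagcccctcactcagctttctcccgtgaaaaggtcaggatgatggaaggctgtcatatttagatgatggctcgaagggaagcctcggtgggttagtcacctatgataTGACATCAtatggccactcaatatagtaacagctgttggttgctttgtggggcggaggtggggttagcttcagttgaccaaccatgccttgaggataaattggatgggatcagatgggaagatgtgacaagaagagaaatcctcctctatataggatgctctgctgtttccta
This variant began 123 bases upstream in ATF3 and 67 bases upstream in JUN, whose product pairs with ATF3, and 2.61% of all windows held it.

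**Figure D2:**
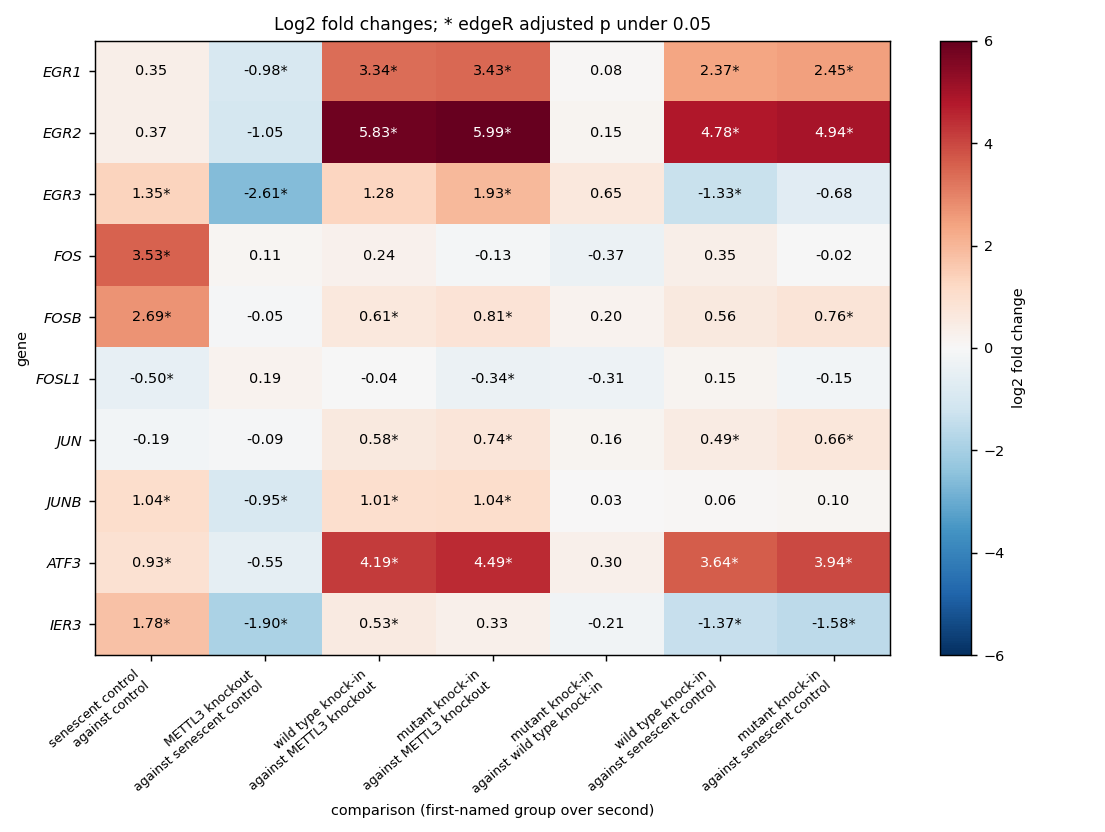
Log2 fold change of the first-named group over the second for the 10 genes (rows) in 7 comparisons (columns); red is higher, blue lower, and an asterisk marks an edgeR adjusted p under 0.05. EGR1, EGR2 and ATF3 carry the deepest red in the knock-in columns, and IER3 is blue in the knock-ins against senescent control.

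FOS and FOSB, the inducible FOS proteins, were higher in senescent cells and called in neither direction in the knockout. FOS had 11.6 and 9.12 CPM in the mutant knock-in, 11.7 and 15.0 in the wild type knock-in, 12.1 and 10.7 in the knockout, 10.6 and 10.5 in senescent control, and 1.01 and 0.806 in control cells. The 2 control samples stood far below the 8 senescent ones, which lay between 9.12 and 15.0 CPM. It rose by 3.53 (SE 0.22) in senescent control against control (adjusted p = 1.21e-07), and by 3.64 (SE 0.22), 3.88 (SE 0.22) and 3.51 (SE 0.22) in the knockout, the wild type and the mutant knock-in against the same control samples. The 4 comparisons share the control samples. The knockout gave 0.11 against senescent control (95% interval -0.24 to 0.45, adjusted p = 0.720).
FOSB had 8.35 and 8.23 CPM in the mutant knock-in, 7.26 and 7.23 in the wild type knock-in, 5.71 and 3.81 in the knockout, 5.65 and 4.20 in senescent control, and 0.919 and 0.582 in control cells. It rose by 2.69 (SE 0.29) in senescent control against control (adjusted p = 1.24e-05) and gave -0.05 (95% interval -0.53 to 0.44) in the knockout. Both knock-ins stood above the knockout, the mutant by 0.81 (SE 0.22, adjusted p = 0.00826) and the wild type by 0.61 (SE 0.22, adjusted p = 0.0450). The wild type call was lost without any of 3 samples (0.395 without knockout sample 2, 0.141 and 0.165 without wild type samples 1 and 2), with DESeq2 (0.159) and with METTL3 counts left out (0.0520). The mutant call was lost without knockout sample 2 (0.122) and without mutant sample 2 (0.0634). The mutant was also higher than senescent control (0.76, SE 0.21, adjusted p = 0.00936), a call lost without senescent control sample 2 or mutant sample 2. The wild type knock-in gave 0.56 (SE 0.21, adjusted p = 0.0510) against senescent control. This passed with upper-quartile scaling, no filter on low counts, only these 2 groups fitted and the replicate block. Mutant and wild type were not told apart (0.20, SE 0.21, adjusted p = 0.569).

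FOS was not called against the knockout in either knock-in (-0.13, SE 0.16, adjusted p = 0.528 in the mutant and 0.24, SE 0.16, adjusted p = 0.275 in the wild type). The FOS window, at chr14:75278578-75278877 on the plus strand, is shown as well.
FOS: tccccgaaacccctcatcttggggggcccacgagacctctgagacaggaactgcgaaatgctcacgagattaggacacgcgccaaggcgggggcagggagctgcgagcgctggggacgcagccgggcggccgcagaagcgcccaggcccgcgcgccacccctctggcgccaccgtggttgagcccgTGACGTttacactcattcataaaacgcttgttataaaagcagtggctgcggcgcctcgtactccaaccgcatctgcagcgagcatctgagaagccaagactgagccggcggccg
It held 1 TGACGT, 64 bases upstream, and no CArG box within the window. Sites farther upstream were not searched in any gene. A CArG box outside the window would be missed, so no contrast with EGR1 and EGR2 can be drawn. FOSB had the same core 60 bases upstream. Of 7 genes with a window used (EGR1, EGR2, FOS, FOSB, JUN, JUNB and ATF3), 4 held this core and 2 a CArG box. None held the full element TGACGTCA (1.85% of all windows), the AP-1 site TGANTCA (7.71%) or the EGR site GCGTGGGCG (0.795%).

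FOSL1 encodes FRA1, the longer-lived FOS protein that ERK stabilises, and was the steadiest of the family in these cells. It had 167.4 and 170.0 CPM in the mutant knock-in, 198.5 and 218.9 in the wild type knock-in, 209.8 and 218.7 in the knockout, 183.7 and 191.6 in senescent control, and 300.3 and 231.3 in control cells. Its 5 group means spanned 0.64 on the log2 scale, the narrowest range of the 10, and control cells were highest. It fell by 0.50 (SE 0.11) in senescent control against control (adjusted p = 0.00365; 0.0505 without senescent control sample 1 and 0.0572 with only these 2 groups fitted). It was lower by 0.31 in the knockout than in control (log2 change -0.31, SE 0.11, adjusted p = 0.0416), a call lost in 8 of 10 alternatives. The change was -0.10 with an adjusted p of 0.341 without control sample 1, and the adjusted p was 0.234 or 0.157 without knockout sample 1 or 2. It was 0.0543 with DESeq2, 0.135 with upper-quartile scaling, 0.0791 with METTL3 counts left out, 0.252 with only these 2 groups and 0.0531 with the replicate block. The wild type knock-in against control gave -0.35 (SE 0.11, adjusted p = 0.0194), which was -0.16 and 0.0841 without control sample 1 and 0.179 without wild type sample 1. The mutant against the knockout gave -0.34 (SE 0.11, adjusted p = 0.0260), and leaving out any 1 of the 4 samples ended that call (adjusted p from 0.0525 to 0.105). The knockout against senescent control gave 0.19 (SE 0.11, adjusted p = 0.311), which passed with only these 2 groups fitted (0.00381). None of the called FOSL1 values changed sign in an alternative.

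JUN and JUNB, which belong to the main partners of FOS proteins, differed. JUN had 138.2 and 162.0 CPM in the mutant knock-in, 126.2 and 141.4 in the wild type knock-in, 88.8 and 90.6 in the knockout, 96.1 and 94.2 in senescent control, and 114.9 and 101.8 in control cells. All 4 knock-in samples stood above the other 6. JUN rose by 0.74 (SE 0.10) in the mutant (adjusted p = 0.000113) and by 0.58 (SE 0.10) in the wild type knock-in (adjusted p = 0.00115) against the knockout, and was higher than in senescent control by 0.66 and 0.49 (SE 0.10 each). Senescence gave -0.19 (SE 0.10, adjusted p = 0.161; 0.0485 without control sample 2), and the knockout -0.09 (SE 0.10).
JUNB rose in senescence, fell in the knockout and rose again in both knock-ins. It had 39.2 and 43.8 CPM in the mutant knock-in, 34.7 and 46.2 in the wild type knock-in, 18.6 and 21.7 in the knockout, 40.5 and 37.3 in senescent control, and 20.1 and 17.6 in control cells. The samples fell into a high set (both knock-ins and senescent control) and a low set (knockout and control) that did not overlap. JUNB rose by 1.04 (SE 0.14) in senescent control against control (adjusted p = 0.000105), fell by 0.95 (SE 0.14) in the knockout (adjusted p = 0.000752), and was higher than the knockout by 1.01 (SE 0.14) in the wild type and 1.04 (SE 0.14) in the mutant knock-in. The difference from senescent control was 0.06 (95% interval -0.23 to 0.36) in the wild type and 0.10 (-0.20 to 0.39) in the mutant knock-in.

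IER3 was, of the 9 genes other than EGR3, the one with the deepest called fall in the knockout. It had 64.5 and 61.8 CPM in the mutant knock-in, 64.1 and 81.6 in the wild type knock-in, 48.8 and 52.0 in the knockout, 200.6 and 176.9 in senescent control, and 61.3 and 48.5 in control cells. Senescent control stood alone, and the knockout samples lay within the range of the control samples. IER3 rose by 1.78 (SE 0.14) in senescent control against control (adjusted p = 9.23e-07) and fell by 1.90 (SE 0.14) in the knockout (adjusted p = 3.87e-06). In contrast to JUNB it did not regain the senescent level in the knock-ins, which were lower than senescent control by log2 changes of -1.37 (SE 0.13) in the wild type and -1.58 (SE 0.14) in the mutant. The wild type knock-in was above the knockout by 0.53 (SE 0.14, adjusted p = 0.0101), a call lost without knockout sample 1 or 2 (0.109 and 0.0650) and without wild type sample 2 (0.164). The mutant gave 0.33 (SE 0.14, adjusted p = 0.0676), which passed with upper-quartile scaling (0.0367), with no filter on low counts (0.0453) and with only these 2 groups fitted (0.000156).

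Counts over the 10 genes were read against all genes tested. The 10 genes were chosen with earlier results of these data known, so these counts and medians are descriptive and no test of the set. In senescent control against control 6 rose and 1 fell, where 19.7% of all genes were higher and 25.3% lower; the median log2 change was 0.98 for the 10 and -0.03 for all genes. In the knockout, 4 fell relative to senescent control and 0 rose (0 also by DESeq2 and at an unadjusted p under 0.05). FOSL1 was called higher there with only these 2 groups fitted (edgeR adjusted p = 0.00381). Of all genes 8.62% were lower and 7.17% higher, and the medians were -0.75 for the 10 and 0.01 for all genes. Over all genes this split was 1202 higher and 1444 lower, and upper-quartile scaling turned it to 1452 and 1204. Leaving out any 1 of the 4 samples cut these 2646 calls to between 1198 and 1368. Of the 9 genes other than EGR2, 6 rose and 0 fell in the wild type knock-in against the knockout (0 also by DESeq2 and at an unadjusted p under 0.05), against 18.5% higher and 14.8% lower of all genes, with medians of 0.61 and 0.02. Over all genes 5584 were called there, and 3390 to 3551 without knockout sample 1, knockout sample 2 or wild type sample 1. In the mutant knock-in 6 of these 9 rose and 1 fell against the knockout, where 24.1% and 24.3% of all genes did, with medians of 0.81 and 0.01. With EGR2 included the mutant counts were 7 and 1, and 5 and 0 without mutant sample 2. These comparisons share samples with each other. Against senescent control 3 of the 9 were higher and 2 lower in the wild type knock-in (20.8% and 19.1% of all genes), and 4 higher and 1 lower in the mutant (27.0% and 26.3%). Against control cells 2 of the 10 were higher and 3 lower in the knockout (19.7% and 26.7%), and of the 9 there were 7 and 1 in the wild type knock-in (29.7% and 30.2%) and 6 and 1 in the mutant (33.7% and 34.4%). The knockout count against control became 2 higher and 1 lower without control sample 1 or either knockout sample, and upper-quartile scaling turned the split over all genes there to 3988 higher and 3540 lower, against 3300 and 4472 under TMM. Over all genes the calls in the knockout against control numbered 5014 without knockout sample 2, against 7772, and those of the wild type knock-in against senescent control 4367 without senescent control sample 2, against 6679.

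The mutant and the wild type knock-in were compared to ask whether the 10 genes tell the 2 METTL3 forms apart. None passed edgeR's test (0 also by DESeq2), where 5.16% of all genes were higher and 7.39% lower in the mutant. At an unadjusted p under 0.05, 1 was higher (ATF3) and 2 lower (FOS and FOSL1). The smallest adjusted p was that of FOSL1, at 0.0985 for a log2 difference of -0.31 (95% interval -0.56 to -0.06), and FOSL1 passed when only these 2 groups were fitted (0.00635) or without a filter on low counts (0.0173). ATF3 differed by 0.30 (95% interval 0.01 to 0.59), EGR2 by 0.15 (-0.25 to 0.56) and EGR1 by 0.08 (-0.21 to 0.37). The widest interval was that of EGR3 (-0.36 to 1.66). With upper-quartile scaling the split over all genes turned to 1056 higher and 773 lower, against 865 and 1238 under TMM. The number of all genes called here moved with single samples. The 2103 calls became 152 (108 higher and 44 lower) without wild type sample 2, 123 (92 and 31) without mutant sample 2, 680 without mutant sample 1 and 1178 without wild type sample 1. METTL3 RNA itself was higher in the mutant by 1.17 (SE 0.14) and HRAS lower by a log2 change of -0.78 (SE 0.11). What part these had was not tested.

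**Figure D3:**
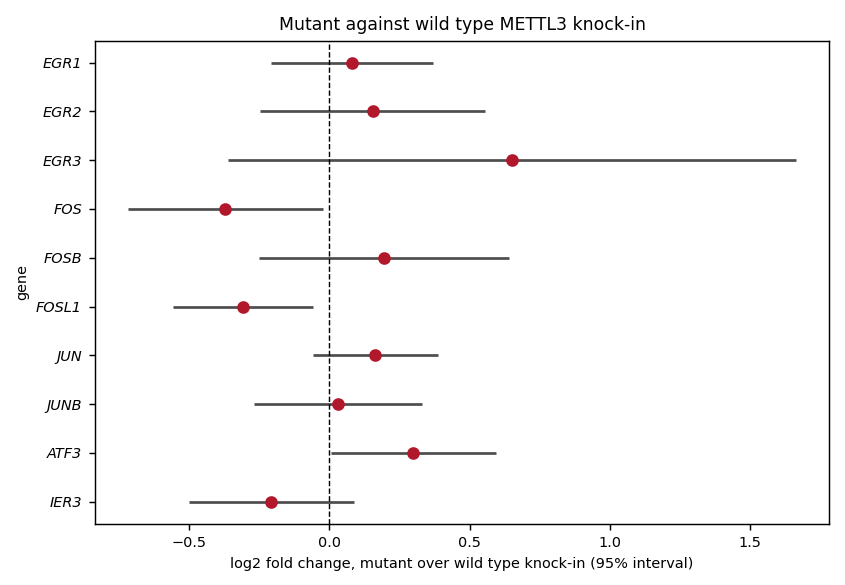
Log2 fold change of the mutant over the wild type knock-in for the 10 genes (points) with the 95% interval of the edgeR fit (lines, 2 samples per group). The intervals of EGR1 and EGR2 cross 0, the interval of EGR3 reaches 1.66, and those of FOS and FOSL1 lie below 0 while that of ATF3 lies above 0.

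To compare genes with each other, mean CPM was divided by exon length (GENCODE v29), which gives CPM per kilobase. FOSL1 was the most abundant FOS or JUN family RNA per length in every group, at 89.4 CPM per kilobase in the mutant knock-in, 110.6 in the wild type knock-in, 113.5 in the knockout, 99.4 in senescent control and 140.9 in control cells. It made up 42.7%, 50.1%, 60.6%, 56.1% and 64.8% of the sum over FOS, FOSB, FOSL1, FOSL2, JUN, JUNB and JUND in that order. JUN came next, at 42.4, 37.8, 25.3, 26.9 and 30.6 CPM per kilobase. FOS, for all its rise in senescence, supplied 1.53% to 1.88% of the sum in the 4 senescent groups and 0.129% in control cells. Of the EGR genes EGR1 led, at 120 CPM per kilobase in the mutant knock-in and 113.1 in the wild type knock-in, against 4.82 and 4.32 for EGR2.

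**Figure D4:**
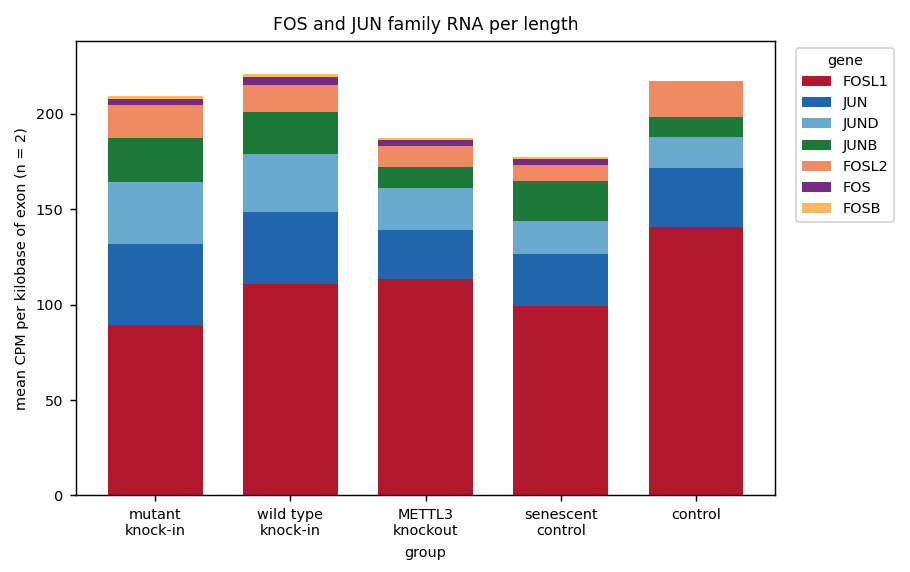
Mean CPM per kilobase of exon (n = 2) of the 7 FOS and JUN family genes, stacked by group. FOSL1 is the largest block in each bar, from 42.7% of the sum in the mutant knock-in to 64.8% in control cells, and FOS and FOSB are thin slices.

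Other genes of the pathway were read from lists of related genes, which were also chosen with earlier results of these data known. Of 24 other immediate early genes, 12 were higher and 4 lower in the wild type knock-in against the knockout, and 15 and 5 in the mutant (medians 0.39 and 0.55). Of all genes 18.5% were higher and 14.8% lower in the wild type, and 24.1% and 24.3% in the mutant. ARC, a neuronal immediate early gene, rose by 4.28 (SE 0.44) to 4.86 CPM in the wild type knock-in, against 0.251 in the knockout. The TGF-beta-inducible repressor KLF10 rose by 1.96 (SE 0.10) and the kinase SIK1 by 1.77 (SE 0.14). Not all of the list went up. The YAP targets CCN1 and CCN2 fell by 0.90 (SE 0.12) and 0.75 (SE 0.14), and DUSP1, a MAP kinase phosphatase, fell by 0.80 (SE 0.09). Set against senescent control, 7 of the 24 were higher and 8 lower in the knockout (median -0.14), where 7.17% and 8.62% of all genes were. The survival factor MCL1 fell by 1.25 (SE 0.08), the nuclear receptor NR4A2 fell by 1.19 (SE 0.15) and CCN2 rose by 1.23 (SE 0.14). In senescent control against control 8 rose and 5 fell, where 19.7% and 25.3% of all genes did. NR4A2 was up by 1.53 (SE 0.15) and GADD45B, a stress sensor, down by a log2 change of -1.34 (SE 0.10). ARC, CSRNP1 and SIK1 were among 5 of the 24 that were higher in the mutant than in the wild type knock-in (1.46, SE 0.25; 0.49, SE 0.11; and 0.48, SE 0.12). All 3 of these calls were lost without mutant sample 2 (0.0984, 0.139 and 0.232), those of CSRNP1 and SIK1 also without either wild type sample (0.0666 to 0.154), and that of SIK1 with DESeq2 (0.0683). By edgeR 0 were lower there (3 at an unadjusted p under 0.05, and 0 by DESeq2), where 5.16% of all genes were higher and 7.39% lower.

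ATF3 stress partners moved with ATF3 in the knock-ins. Of 8, 7 rose and 0 fell in each knock-in against the knockout by edgeR (0 also by DESeq2 and at an unadjusted p under 0.05). The medians were 1.12 in the wild type and 1.64 in the mutant. Of all genes 18.5% rose and 14.8% fell in the wild type, and 24.1% and 24.3% in the mutant. TRIB3, a pseudokinase induced by ATF4, had 60.1 CPM in the wild type knock-in, against 10.3 in the knockout (2.54, SE 0.12). DDIT3, the stress factor CHOP, rose by 2.27 (SE 0.13) and PPP1R15A, which restarts translation after stress, by 1.54 (SE 0.16). In the knockout 2 of these 8 were below senescent control, CEBPB at -0.83 (SE 0.13) and CHAC1 at -0.37 (SE 0.11). Above it were 0 (0 also by DESeq2 and at an unadjusted p under 0.05), where 8.62% of all genes were lower and 7.17% higher. The CHAC1 call was lost with DESeq2 (0.0855), with upper-quartile scaling (0.0847) and without senescent control sample 1 (0.367), knockout sample 1 (0.228) or knockout sample 2 (0.145).

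Partners and regulators gave a mixed picture. Of 9 tested AP-1 and small MAF partners, 5 rose and 0 fell by edgeR in the wild type knock-in (2 fell at an unadjusted p under 0.05, and 0 by DESeq2), with MAFF, an inducible small MAF protein, at 51.5 CPM against 12.5 in the knockout (2.04, SE 0.11). FOSL2, the FRA2 gene, fell by 1.23 (SE 0.10) in senescent control against control and rose by 0.45 (SE 0.10) in the knockout, a call lost without senescent control sample 1 (0.110) or without knockout sample 1 (0.0596) or 2 (0.0804). Of 8 EGR co-regulators and serum response factors other than EGR4, 3 rose and 2 fell in the wild type knock-in. EGR4, the remaining EGR gene, passed the filter only through the knock-ins and had 28 counts in the wild type and 13 in the mutant knock-in and 0 in the other 3 groups, so its level in the wild type knock-in was at least 9.0-fold that of the knockout, taking a floor of 3 counts over the group, and in the mutant at least 4.86-fold. The co-repressor NAB1 moved like JUNB in direction, with a rise of 1.10 (SE 0.11) in senescent control, a fall of 0.95 (SE 0.12) in the knockout and a rise of 0.49 (SE 0.12) in the wild type knock-in, the last lost without knockout sample 1 (0.0757) or 2 (0.0752) or wild type sample 2 (0.0983). NAB2 fell in the knockout by 0.84 (SE 0.12). Of 15 MAP kinases and activators 6 fell and 0 rose by edgeR in the knockout (0 rose by DESeq2 or at an unadjusted p under 0.05), among them the ERK-activated kinase RPS6KA1 by 1.11 (SE 0.21; adjusted p = 0.0535 without knockout sample 2), and 2 rose and 5 fell in the wild type knock-in. Of 7 factors that act on AU-rich RNAs, 0 rose and 3 fell by edgeR in the wild type knock-in (0 rose by DESeq2 or at an unadjusted p under 0.05, and 2 fell by DESeq2), among them ZFP36L2, which marks such RNAs for decay (-0.63, SE 0.12). Shares of all genes called in these comparisons are given above.

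**Figure D5:**
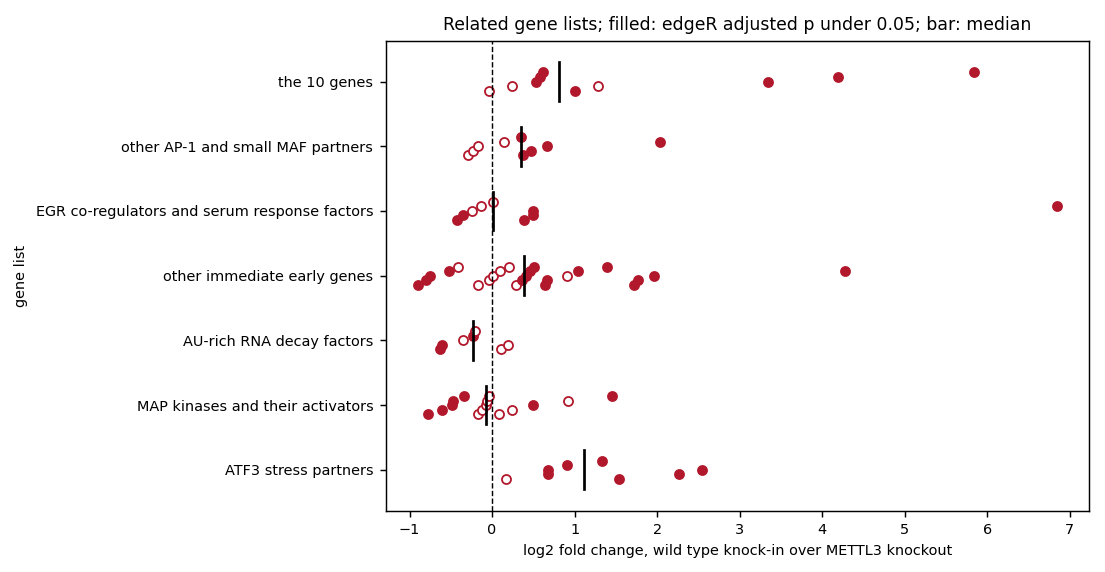
Log2 fold change of the wild type knock-in over the METTL3 knockout for the 10 genes and 6 related lists; each point is a gene, filled where the edgeR adjusted p is under 0.05, and bars are medians. The 10 genes have a median of 0.81 (0.61 without EGR2) and the ATF3 stress partners 1.12; the point farthest right is EGR4, whose fitted value has 0 counts in the knockout and is no measured fold.

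Genes with the most similar profile were ranked by the root mean square difference of centred log2 CPM over the 10 samples. For EGR1 the nearest was NR1D1, a clock repressor (0.231), with 153 CPM in the mutant and 126.2 in the wild type knock-in, 20.1 in the knockout, 29.7 in senescent control and 24.4 in control cells. HLF, CD83, TRIB3 and HS3ST2 followed (0.303 to 0.320), and of these HLF and HS3ST2 stayed under 1 CPM in every group. For ATF3 the nearest were ANO9 (0.370), HIF1A-AS3, ANKRD26P1, SLC6A13 and LINC01822, which reached at most 5.33 CPM in the mutant knock-in and at most 0.136 CPM in the knockout. For FOSL1 they were CD99 (0.0424), ARHGAP1, PRCP, CSPG4 and DGAT1, a set whose small distances go with the narrow range of FOSL1. The genes listed for ATF3, and HLF and HS3ST2 for EGR1, passed the filter on low counts only through the knock-ins. Their log2 levels in the other groups rest mostly on the small count added before taking logs. Their likeness was therefore partly set in advance and shows little beyond a high level in the knock-ins.

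Annotated genes on the opposite strand overlap IER3 (IER3-AS1), JUNB (HOOK2), FOSB (ERCC1) and EGR3. The strand setting of the counting was not stated, so reads of these partners cannot be told apart from the genes themselves.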

How the data were processed

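The deposited data are whole-number counts of reads per gene in 1 table covering all 10 samples, not normalized by the authors. Tools listed in the submitters' processing notes are Bowtie2 and RSEM 1.2.12, with genome hg19; the annotation and strand setting were not stated. Per the labels' protocols, the library kit was KAPA RNA HyperPrep. A table of Ensembl IDs gave symbols for 39501 of 57736 genes. Promoters (RefSeq, GRCh38.p14) were matched by symbol and used for 7 of the 10 genes. FOSL1 and IER3 had no promoter entry, and EGR3 was left out of the promoter results. Exon lengths came from GENCODE v29, not the build of the counts.

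Counts were analysed with edgeR 4.0.16 in R 4.3.3: filterByExpr (minimum count 10), TMM scaling, 1 model with a coefficient per group over all 10 samples (5 residual degrees of freedom), and two-sided quasi-likelihood tests, adjusted by Benjamini-Hochberg. SE and 95% intervals were derived from the F statistics and use a spread pooled over all groups. CPM were computed from the deposited counts and TMM-scaled totals. Alternatives were DESeq2 1.42.0, upper-quartile scaling, METTL3 counts left out, no filter, only the 2 compared groups, a replicate block and each sample left out, where a lone sample is assumed to vary like the other groups. The fit was tested on simulated data. Some genes of the lists are not reported here by name. The members and lists were chosen with earlier results of these data known. All 10 genes are named; of each related list, up to 3 called genes with the largest changes in a comparison, and for likeness the 5 nearest genes with a symbol. CCN1, CCN2 and DUSP1 in the wild type knock-in, and the promoter variant TGACATCA, were picked after their values were seen.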

Additional observations from a re-analysis of the deposited data

How the results depend on the processing

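Each result printed with a test for the 10 genes was recomputed under up to 10 alternatives. Of 48 called results 35 kept direction and call in all of them, and of 32 that were not called 22 stayed so; 0 of 796 alternative values turned a called direction. Calls of EGR1, EGR2, ATF3 and JUN in the knock-ins, of FOS and FOSB in senescence, and of IER3, JUNB and EGR1 in the knockout were among the 35. The EGR2 calls are included in these counts, although EGR2 passed the filter, as applied to all 10 samples, only through the knock-ins. Of 30 results for named genes outside the 10, 23 kept direction and call in all alternatives and 0 reversed. The counts of called genes moved by over 1.5 times in 3 comparisons. The mutant against the wild type knock-in went to 1 called gene (FOSL1) with no filter on low counts and with only the 2 groups fitted, against 0. The knockout against control went to 3, against 5, with DESeq2, upper-quartile scaling, METTL3 counts left out, only the 2 groups fitted and the replicate block, and to between 3 and 6 with a sample left out. The mutant against the knockout, 8 called, had 5 to 7 with a sample left out. The cause was not tested. Upper-quartile scaling moved the median of all genes to 0.139 in the mutant against control, where TMM gave -0.00182, and by less than 0.1 in the other comparisons. With only the 2 groups fitted, calls over all genes were 5621 in the knockout against senescent control (2646 in all groups), 4078 in the mutant against the wild type knock-in (2103) and 5108 in the knockout against control (7772). Upper-quartile scaling gave more higher than lower calls over all genes in the mutant against the knockout (4382 and 3603), senescent control (5228 and 3698) and control (6495 and 4847), and in the wild type knock-in against control (5649 and 4394).

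Replicate numbers were not shown to pair the samples: the correlation of sample 1 minus sample 2 between groups ran from -0.12 to 0.06 over 10 pairs of groups. Besides the knockout against control, the replicate block called FOSB in the wild type knock-in against senescent control (0.58, edgeR adjusted p = 0.0304), which missed without it (0.0510). Depth limits EGR2 outside the knock-ins (2 to 13 counts) and EGR3 (3 to 39 counts).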
